A study of Mus musculus with 17 samples.

Results

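The WT1 binding sites described here lie at the mouse Magi2 locus on chromosome 5. They are the 115 peaks, of 107761 in all, chosen by position: their summit fell between 18.65 and 20.25 Mb of the mm9 genome, a window of 1.6 Mb that holds Magi2 and a flank upstream of it. The window itself was selected on fold enrichment and peak presence in the glomerular lists, because it contains a strong site near its start with a peak in vehicle glomeruli and none in glomeruli after adriamycin. WT1 was measured by chromatin immunoprecipitation and sequencing (ChIP-seq), which calls a peak wherever precipitated DNA fragments gather above the background. The study asked how WT1 binding differs during podocyte injury, brought about by adriamycin, another name for doxorubicin (ADR), and compared with phosphate-buffered saline (PBS).

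All 5 immunoprecipitation groups came from mice aged 7 to 8 weeks with the genotype given as wildtype. Isolated glomeruli of the BALB/cJ strain gave 4 PBS and 4 ADR libraries, with no day stated for either group. Podocytes purified from a reporter strain, mTmG in the sample titles, gave 3 PBS libraries, again with no day, and after ADR 2 libraries for day 9 and 2 for day 14. In that strain a recombinase active in podocytes marks these cells. Each group was represented by 1 deposited peak list, so the libraries of a group are not separable here and every difference between groups lacks a check on replicates. Intervals below cover counting error only. In glomeruli, fewer podocytes and less WT1 on the chromatin of each podocyte cannot be told apart, and peak lists hold no expression by which the labelled cell types could be checked.

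Magi2, also called S-SCAM, is a membrane-associated guanylate kinase that carries WW and PDZ domains and scaffolds proteins at cell junctions. In podocytes it binds nephrin at the slit diaphragm, the junction between foot processes that completes the filter of the kidney, and its loss in mice and people leads to heavy proteinuria. WT1 is a zinc-finger transcription factor that mature podocytes need, and it binds GC-rich words close to those of the EGR proteins. Magi2 is gene 50791, and in the RefSeq table of GRCm38.p6 its protein-coding neighbours are Gnai1 on the lower side and Phtf2 on the higher.

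The RefSeq promoter table of the same build holds 2 start regions of Magi2, both on the plus strand, and their 250 bases before the start are shown because they are the regulatory sequence of the gene that could be searched for WT1-like words. The first covers chr5:19226796-19227045 and the second chr5:19907268-19907517 of GRCm38.p6. No genome of the peaks' build was used, so these positions are not set against the mm9 peaks, and which peak lies at which start is not given. Capitals mark every match to the searched words on either strand.
Magi2 promoter 1: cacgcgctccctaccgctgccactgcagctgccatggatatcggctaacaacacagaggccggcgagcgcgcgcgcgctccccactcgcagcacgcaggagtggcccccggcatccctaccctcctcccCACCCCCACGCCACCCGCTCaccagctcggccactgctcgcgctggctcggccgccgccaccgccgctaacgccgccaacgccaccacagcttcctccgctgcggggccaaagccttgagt
Magi2 promoter 2: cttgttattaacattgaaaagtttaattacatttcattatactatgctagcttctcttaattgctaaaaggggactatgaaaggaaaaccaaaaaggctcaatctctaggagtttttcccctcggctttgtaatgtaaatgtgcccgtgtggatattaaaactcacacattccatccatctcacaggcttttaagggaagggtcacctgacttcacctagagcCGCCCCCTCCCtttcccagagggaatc

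The capitals in promoter 1 hold 1 match to GCGTGGG, read on the minus strand between positions -117 and -111 from the start, and 3 matches to the looser zinc-finger word GNGNGGGNG, of which 2 overlap it. Promoter 2 holds 2 overlapping matches to GNGNGGGNG and none to GCGTGGG. The word GCGGGGGCG was in neither. Among all 32851 promoter stretches of this length, 4.30% hold GCGTGGG, 2.57% hold GCGGGGGCG and 35.8% hold GNGNGGGNG on either strand. G and C make up 72.0% of promoter 1 and 41.2% of promoter 2, against a median of 52.4% over all promoters. A match is a description of the letters and not a binding site.

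The caller's values allowed the number of fragments over each summit to be recovered. Fold enrichment was taken as the pileup plus 1 over the background plus 1, and the p-value as the Poisson tail at that background, a form inferred from the values and not stated in the labels. Solving both for each peak gave whole fragments, within 0.01, for 99.4% to 99.96% of the peaks of the 5 lists, against 2.09% to 3.37% when the fragment step was set 3% too large. The same solution gave an implied mean fragment coverage, the background pileup divided by the caller's scale, of 5.67 for PBS and 3.16 for ADR glomeruli. Podocytes had 2.90 with PBS, 2.16 at day 9 and 2.87 at day 14. Day 9 thus had the longest list at the lowest coverage, and coverage at day 14 was 0.991 times that of PBS podocytes. Fragments at a summit are given below as counts and, between lists, divided by these coverages.

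WT1 bound the window at 49 separate sites, which are unions of overlapping peaks. Glomeruli had 25 peaks there with PBS and 9 after ADR, and podocytes had 21 with PBS, 46 at day 9 and 14 at day 14. Per Mb that was 15.6, 5.63, 13.1, 28.8 and 8.75 peaks, against averages over each whole list of 11, 6.31, 8.88, 12.1 and 2.54. ADR glomeruli were the one list in which the window lay below the average, though not below the median window. Among 1640 consecutive windows of the same length, the median number of peaks was 13 in PBS and 6 in ADR glomeruli. In podocytes it was 11 with PBS, 15 at day 9 and 3 at day 14. As many peaks as this window or more were held by 479 windows in PBS and 690 in ADR glomeruli. For podocytes these were 452 windows with PBS, 162 at day 9 and 60 at day 14. No site held more than 1 peak of a list.

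**Figure D1:**
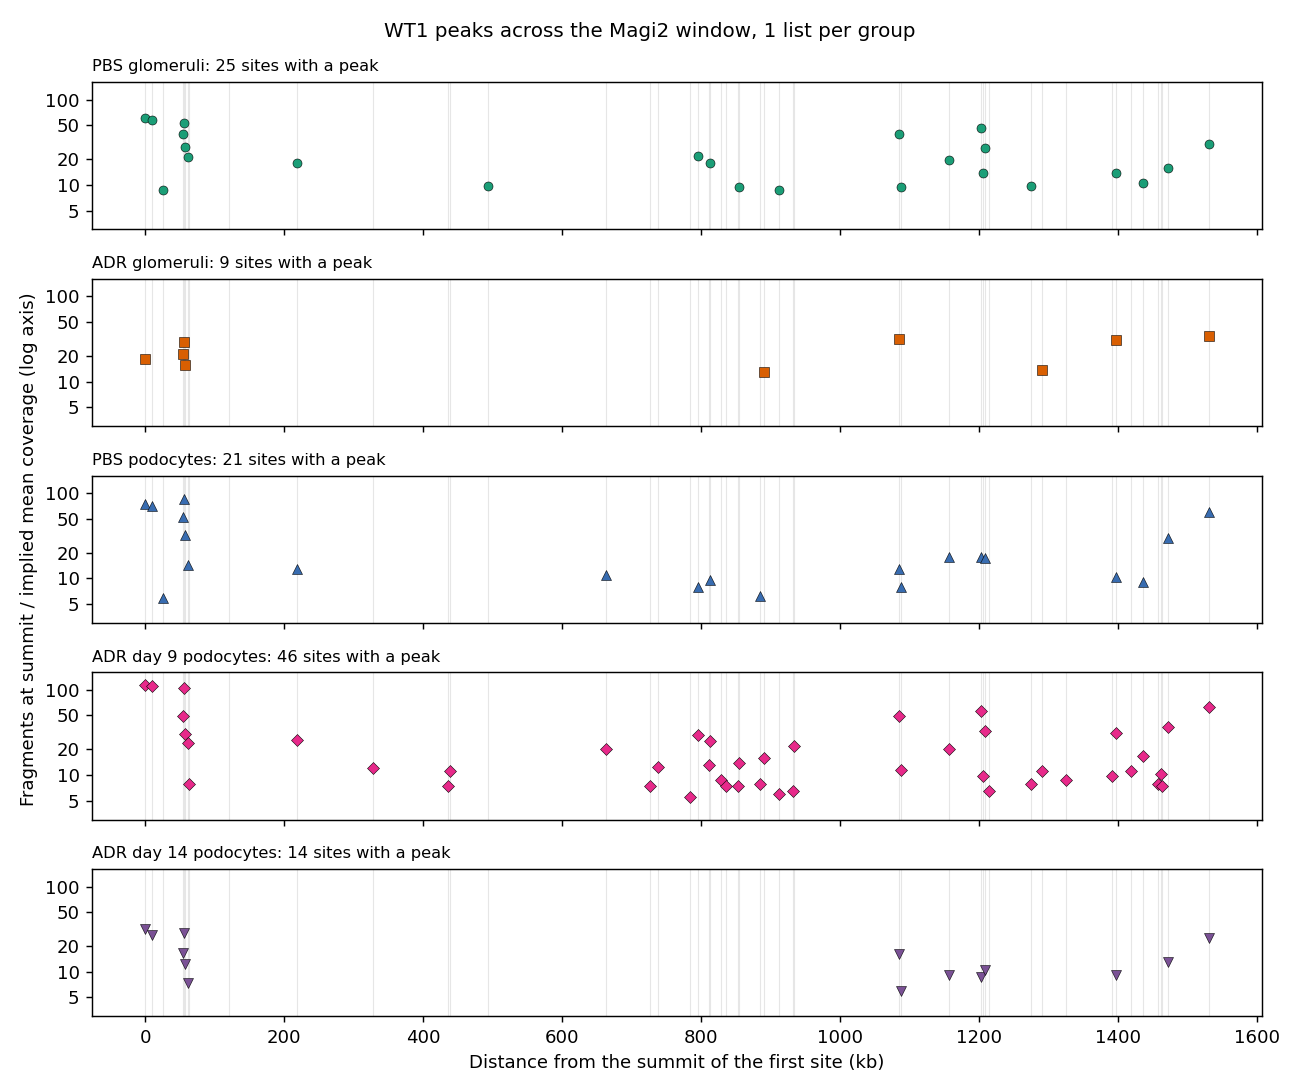
Each panel shows the sites of 1 peak list along the Magi2 window, by distance in kb from the summit of the first site, with fragments at the summit divided by the implied mean coverage of the list on a log axis. Grey lines mark all 49 sites. The strongest sites sit within the first 61 kb in PBS glomeruli and in all 3 podocyte lists. Of the 25 sites of PBS glomeruli 24 are plotted, since the fragments of 1 peak could not be solved.

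The sites fell into a compact group at the start of the window, a long middle part and a distal group. The first 8 sites spanned 63.0 kb and had 7 peaks with PBS and 4 after ADR in glomeruli, and 7 with PBS, 7 at day 9 and 6 at day 14 in podocytes. The middle 22 sites spanned 814 kb and had 7, 1, 5, 20 and 0 peaks in the same order, the 0 being that of day 14. The day 14 list averaged 2.54 peaks per Mb, so few would be expected in such a stretch. The parts were cut at 65 and 1000 kb from the first site, and no share over the genome was computed for them. The distal 19 sites spanned 446 kb and had 11, 4, 9, 19 and 8. The longest stretch without a peak in any list was 169950 bp, from 19170604 to 19340555.

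The 2 strongest sites of the window stood side by side at its start. The site at 18.677 Mb (18676911 to 18677679) had a peak in all 5 lists. Glomeruli had 345 fragments there with PBS (33.1-fold enrichment) and 58 after ADR (8.51-fold). Podocytes had 218 with PBS (51.7-fold), 244 at day 9 (75.8-fold) and 92 at day 14 (21.9-fold). It was the strongest of the window by fold in every list but that of ADR glomeruli, where it ranked 5 of 9. In PBS glomeruli it was number 36 of all 29082 peaks by fold, and in ADR glomeruli number 6142 of 16634. The site lay 9.62 kb before its neighbour at 18.687 Mb (18686447 to 18687289), the one for which the window was picked.

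That neighbour was nearly as strong wherever it had a peak. PBS glomeruli had 327 fragments (31.4-fold), and podocytes had 204 with PBS (48.4-fold), 240 at day 9 (74.5-fold) and 77 at day 14 (18.4-fold), and ranked next after the 18.677 Mb site in each of these 4 lists. ADR glomeruli had no peak there. Scaled to the coverage of ADR glomeruli, the PBS count is 182 fragments. The lowest count of any called ADR peak at the genome background was 27. Because the window was picked for this contrast, the distance between these counts describes the choice and nothing is read from it. The 4 peaks at this site had summits within 59 bp, and those at 18.677 Mb had 5 summits within 24 bp.

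Between 18.731 and 18.738 Mb stood 4 further sites, of which 3 had a peak in every list. The site at 18.733 Mb (18732164 to 18733069) held 304 fragments in PBS and 92 in ADR glomeruli. Podocytes had 245 with PBS, 228 at day 9 and 82 at day 14. By fragments over coverage it was the highest of the window in PBS podocytes, at 84.6 times the mean coverage against 75.2 at 18.677 Mb. Its fold enrichment in podocytes was low all the same, at 10.2 with PBS, 11.3 at day 9 and 3.15 at day 14, the last being the lowest of the window in that list. The background the caller set against the site was a pileup of 17.0, 18.0 and 18.0 in these 3 lists, while in PBS and ADR glomeruli it was 1.15 and 0.764, the genome-wide level of those lists.

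A high podocyte background was also set at the last site of the window, at 20.208 Mb (20207588 to 20208371). It had 171 fragments in PBS and 107 in ADR glomeruli, while podocytes had 175 with PBS, 136 at day 9 and 72 at day 14. The local background was 18.0, 16.0 and 12 units of pileup in the podocyte lists and 1.46 and 0.797 in PBS and ADR glomeruli. The control behind each list is not given in the sources used here. Ranked by fold, its PBS podocyte peak stood at percentile 55.6 of the list, and ranked by the caller's p-value at 84.0. At 18.733 Mb the day 14 peak stood at percentile 2.75 by fold and 35.5 by p-value. Fold enrichment thus ranked both sites lower in podocytes than the p-value did.

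**Figure D2:**
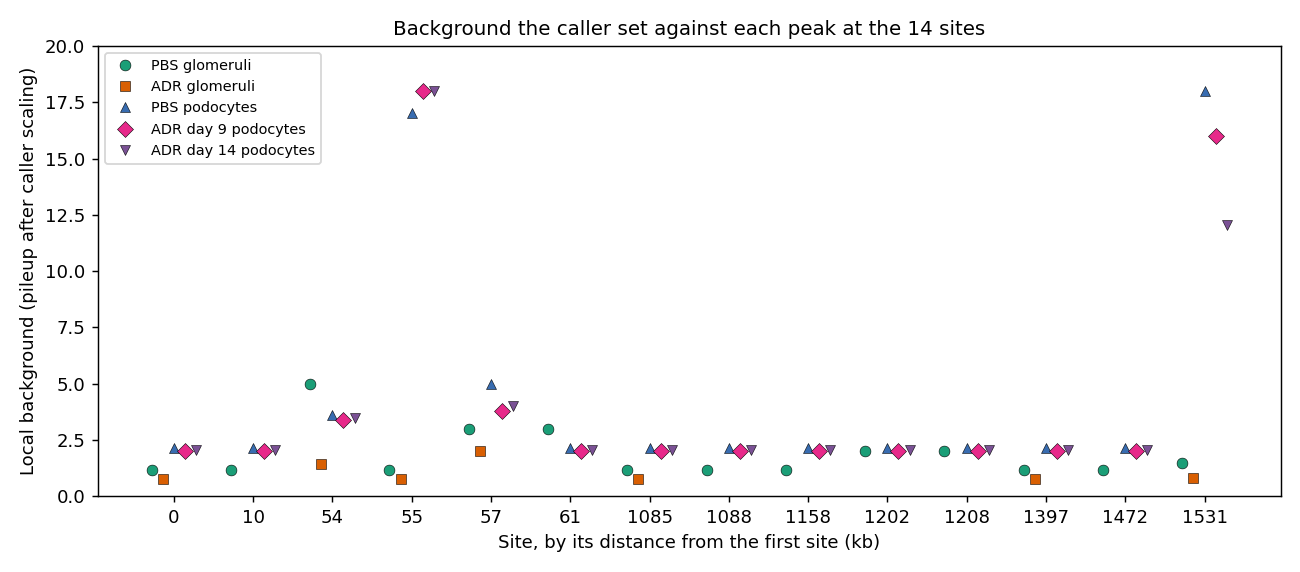
The vertical axis gives the local background, as pileup after the caller's scaling, that was set against each peak, and the horizontal axis the 14 sites with a peak in 4 or 5 lists, by distance in kb from the first. Backgrounds lie between 0.764 and 5.00 except in podocytes at the sites 55 and 1531 kb from the first, where they reach 12 to 18.0.

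The other sites of this group were weaker. At 18.731 Mb (18731046 to 18731722) there were 225 fragments in PBS and 67 in ADR glomeruli, with 151, 108 and 48 in podocytes with PBS, at day 9 and at day 14. The site at 18.734 Mb (18733757 to 18734489) held 158, 50, 94, 65 and 35 fragments in the same order. At 18.738 Mb (18737838 to 18738650) PBS glomeruli had 122, podocytes 42 with PBS, 52 at day 9 and 21 at day 14, and ADR glomeruli had no peak. At the 4 sites of the group with both glomerular peaks, ADR glomeruli had the lower fragments over coverage, and day 14 had the lowest of the podocyte lists at each of these 3 sites. A weak site at 18.703 Mb, with 49 fragments in PBS glomeruli and 17 in PBS podocytes, had no peak in any ADR list.

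Glomeruli after ADR were set against PBS glomeruli to see how binding at the locus stood after injury. ADR glomeruli shared 7 sites with PBS glomeruli. That was 7 of the 25 PBS peaks of the window (28%, 95% Wilson interval 14.3 to 47.6), against 46.5% of all PBS peaks, and 7 of the 9 ADR peaks (77.8%, 45.3 to 93.7), against 82.6% of all ADR peaks. Since the choice of the window used this contrast, these shares are a description of it. When peaks of either list were kept from a −log10 q of 10 upward, 5 of 5 ADR peaks had a PBS match. With the PBS list cut by p-value to the length of the ADR list, 16 of its window peaks were left. Of these, 43.8% had an ADR match, so the 28% depends on list length. The shares over the whole lists were not computed under either setting.

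The shared glomerular sites differed in how their fragments stood after ADR, the 4 near the start lying below the 3 distal ones. At 18.677 Mb the ADR to PBS ratio of fragments, scaled by coverage, was 0.301 (interval 0.224 to 0.399), which lay at percentile 0.865 of the 13121 regions shared by both glomerular lists. The neighbouring sites at 18.731, 18.733 and 18.734 Mb had ratios of 0.534, 0.542 and 0.567, at percentiles 9.97, 10.5 and 12. The 3 distal sites were higher. At 19.762 Mb the ratio was 0.801 (0.627 to 1.02) and at 20.208 Mb it was 1.12 (0.872 to 1.44), and at 20.074 Mb it was 2.20 (1.62 to 3.0), at percentile 98.1. In all, 2 of the 7 sites had a ratio above 1, against 40.3% of all shared regions, whose median was 0.919. Shared regions, here and in the comparisons below, are only those called in both lists. A region weak in PBS glomeruli could not reach a ratio as low as 0.301 and still be called. The lowest called ADR count at the genome background was 27. The window was also picked on this contrast, so nothing is read from the low percentiles.

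Among the 18 PBS glomerular sites without an ADR peak, the 18.687 Mb site was the strongest and the site at 19.880 Mb (19879234 to 19879939) the next, with 267 fragments or 149 when scaled to ADR coverage. The site at 19.886 Mb followed with 155 fragments (86.5 scaled). Over the 17 of these sites with a solved count, the scaled counts ran from 27.3 to 182 with a median of 50.2. For 8 of them the scaled count was more than double the lowest called ADR count of 27, and for the others it was nearer to it. The same share was not computed over all PBS glomerular peaks without an ADR match. Whether 8 of 17 is usual for the list is therefore not known, and the window was picked on this contrast.

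**Figure D3:**
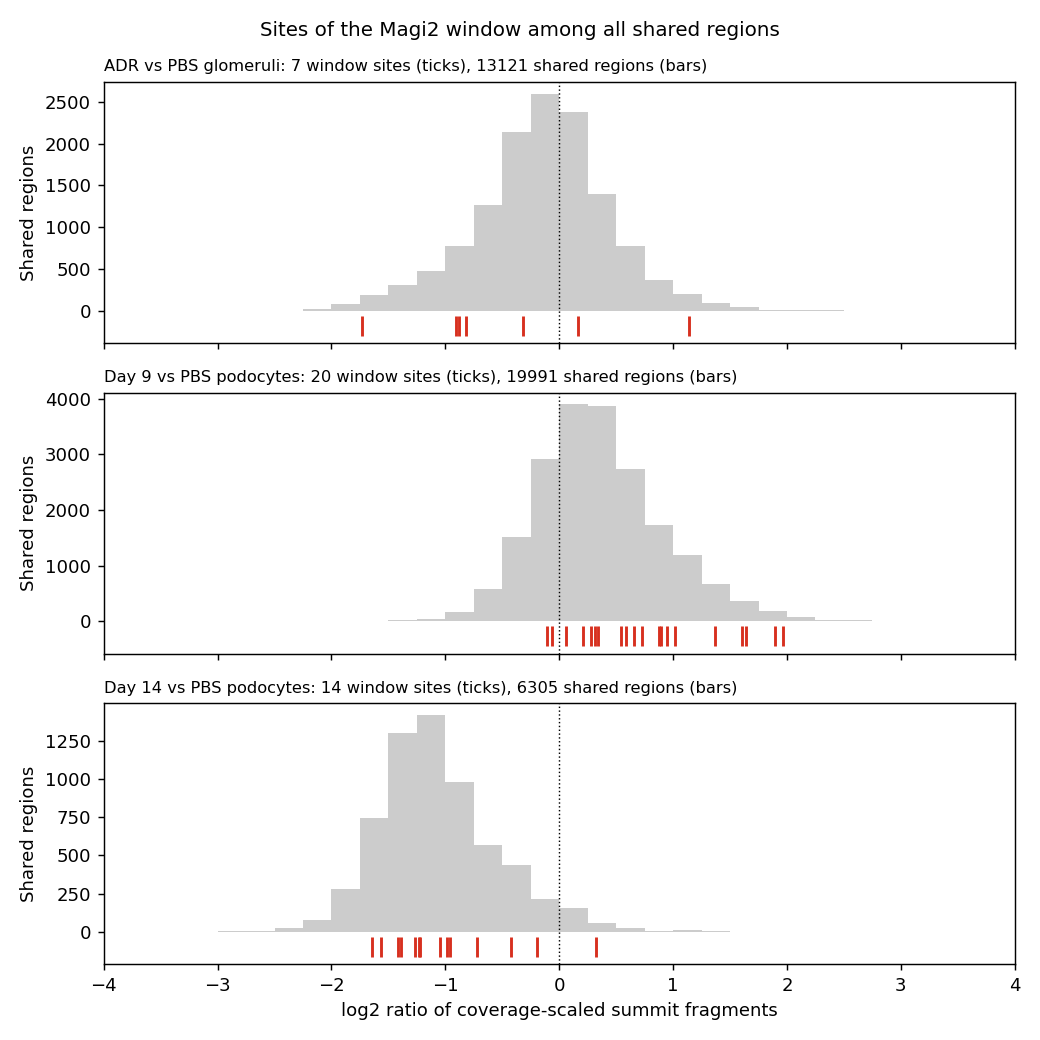
Grey bars count the regions shared by both lists by the log2 ratio of their summit fragments, scaled by implied mean coverage, and red ticks mark the sites of the Magi2 window. The dotted line is a ratio of 1. Of the ticks, 5 of 7 lie below it in the glomerular panel, 18 of 20 above it at day 9 and 13 of 14 below it at day 14.

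In purified podocytes, day 9 after ADR was set against PBS. Of the 21 PBS podocyte peaks of the window, 20 had a day 9 peak (95.2%, 77.3 to 99.2), against 87% of all PBS peaks, and the exception was the weak 18.703 Mb site. Of the 46 day 9 peaks, 20 had a PBS peak (43.5%, 30.2 to 57.8), against 64% over the whole day 9 list. At 18 of the 20 shared sites fragments over coverage were higher at day 9, against 73.9% of all shared regions. The median ratio was 1.62 in the window and 1.23 over all 19991 shared regions.

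The highest ratios at day 9 were at sites of the middle and distal parts, though not all sites there were high. At 19.762 Mb (19762091 to 19762780) PBS podocytes had 37 fragments and day 9 had 108, a ratio of 3.91 (2.67 to 5.84) at percentile 99.3. At 19.472 Mb (19472092 to 19472603) the counts were 23 and 64, a ratio of 3.73 (2.28 to 6.29) at percentile 99.0. The sites at 19.880 Mb, with 52 and 121 fragments, and at 20.074 Mb, with 30 and 68, had ratios of 3.12 and 3.03. The 18.731 and 18.734 Mb sites had ratios of 0.958 (0.741 to 1.23) and 0.926 (0.664 to 1.28), whose intervals include 1. Intervals also included 1 at the distal sites at 20.208 Mb (ratio 1.04), 19.835 Mb (1.16), 20.149 Mb (1.22) and 19.765 Mb (1.46) and at the middle site at 19.562 Mb (1.26). The pair at the start of the window stood between, at 1.5 for 18.677 Mb and 1.58 for 18.687 Mb.

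Day 9 podocytes had a peak at 46 of the 49 sites, 93.9%, against 75.4% of all merged regions. At 20 sites (40.8%) day 9 was the one list with a peak, against 16.1% of all regions. These 20 sites had 12 to 48 fragments at day 9 with a median of 18, while the 26 day 9 sites with a peak elsewhere had 13 to 244 with a median of 55. The same split was not computed over all day 9 regions, so whether it is usual for the list is not known. The strongest of the 20 was at 19.611 Mb (19610822 to 19611383), with 48 fragments and 15.2-fold enrichment. By fold enrichment it was followed by 19.489 Mb, with 28 fragments and 8.99-fold, and 19.005 Mb, with 26 and 8.37-fold. Of the 20 sites, 12 lay in the middle part, 7 in the distal group and 1 in the group at the start. PBS podocytes and day 14 had the higher implied coverage and no peak at them. Their calling limits were also higher. The lowest called count at the genome background was 15 for PBS podocytes, 16 for the day 14 list and 11 for that of day 9. All 32 day 9 sites without a day 14 peak, these 20 included, were scaled to day 14 coverage. Their counts then ran from 15.9 to 84.9 with a median of 27.9. The 84.9 was at a site with peaks in PBS glomeruli and PBS podocytes too, and the highest of the 20 was 63.7, at 19.611 Mb. This scaling is for coverage alone. Over all regions shared by day 9 and day 14, the median day 14 to day 9 ratio was 0.327 after the same scaling. The scaled counts leave that lower level out, so they do not show that day 14 peaks would be expected at these sites. Why the other lists had no peak at the 20 sites was not tested.

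Day 14 podocytes had a peak at 14 sites, each of which also had a PBS podocyte, a day 9 and a PBS glomerular peak. The share of all day 14 peaks with a PBS glomerular peak was not computed. The 14 matches were 66.7% (45.4 to 82.8) of the 21 PBS podocyte peaks of the window, against 27% of all PBS podocyte peaks, and 30.4% (19.1 to 44.8) of the 46 day 9 peaks, against 20.5% of all day 9 peaks. In the other direction, 14 of 14 day 14 peaks had a PBS match and 14 of 14 a day 9 match, against 96.1% and 99.7% over the list. The comparison with PBS uses the same PBS podocyte list as that of day 9. When the longer list was cut to the length of the shorter by p-value, 7 of the 14 day 14 peaks (50%) had a PBS match. The share over the whole day 14 list under this cut was not computed, and the 96.1% is from the uncut lists.

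Fragments at day 14 were lower than with PBS at 13 of the 14 shared sites, and 4.08% of all 6305 shared regions had a ratio above 1. The median ratio was 0.457 in the window and 0.457 over all shared regions, so the window as a whole stood where the list stood. At 18.677 Mb the ratio was 0.426 (0.330 to 0.546) and at 18.687 Mb 0.381 (0.289 to 0.497). The lowest ratio was 0.321 (0.227 to 0.446), at 18.731 Mb. Against day 9 all 14 ratios were below 1, with 0.336% of shared regions above it, and the lowest was 0.156 (0.0969 to 0.241) at 19.880 Mb, where 121 fragments at day 9 stood against 25 at day 14. Relative to the median of all shared regions, 7 of the 14 sites were above and 7 below in the comparison with PBS.

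Of the distal sites with a peak in all 5 lists, those at 19.762 and 20.074 Mb are described here after their values were seen. At 19.762 Mb glomeruli had 226 fragments with PBS and 101 after ADR, and podocytes 37 with PBS, 108 at day 9 and 46 at day 14. It was the one shared site with more fragments over coverage at day 14 than with PBS, at a ratio of 1.25 (0.796 to 1.99), an interval that includes 1 but a value at percentile 99.0 of all shared regions. At 20.074 Mb (20073938 to 20074745) the 5 counts were 79, 97, 30, 68 and 26. Its day 14 ratio of 0.874 (0.497 to 1.53) was at percentile 93.5. In ADR glomeruli the strongest peaks of the window were at 20.208, 19.762 and 20.074 Mb, with 15, 14.4 and 13.9-fold enrichment, whereas in PBS glomeruli those at 18.677, 18.687 and 18.733 Mb led, with 33.1, 31.4 and 29.2-fold.

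**Figure D4:**
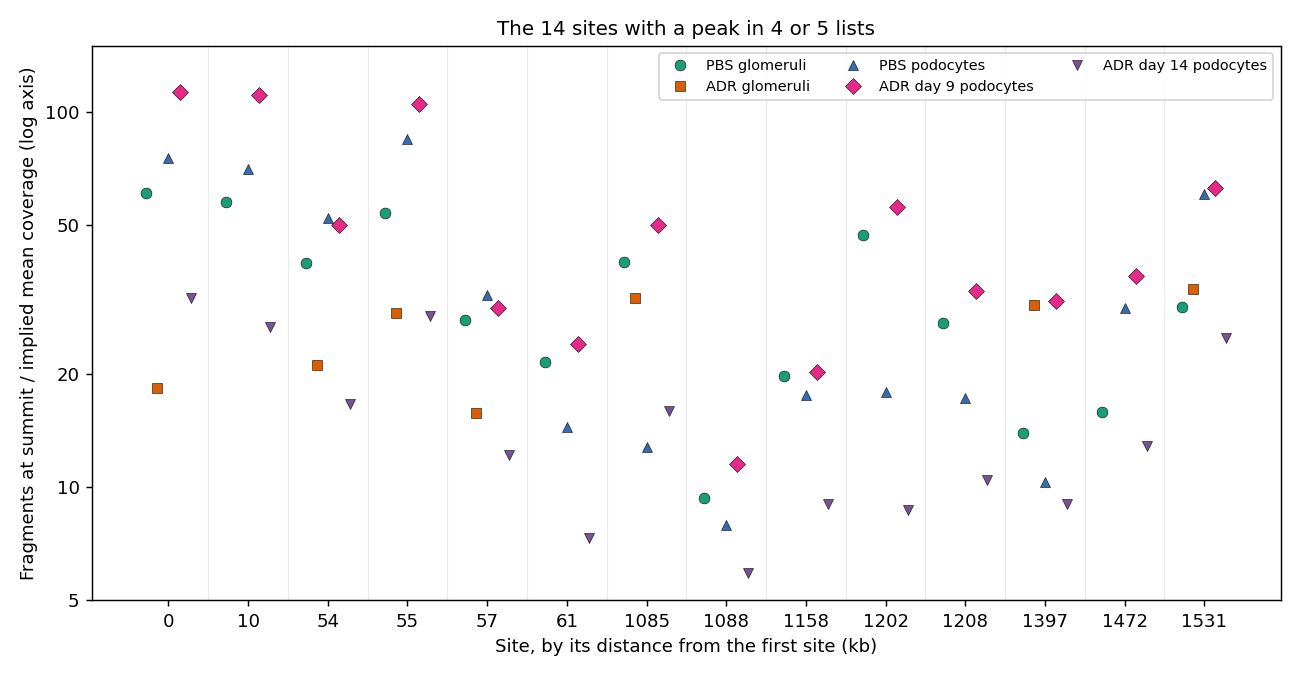
Points show fragments at the summit divided by the implied mean coverage of each list, on a log axis, at the 14 sites with a peak in 4 or 5 lists, ordered by distance in kb from the first. Day 9 is the highest of the podocyte lists at 12 of the 14 sites. That share was not computed over all regions. Of all shared regions, 73.9% were higher at day 9 than with PBS, and 0.336% were higher at day 14 than at day 9. ADR glomeruli, where they have a peak, lie below PBS glomeruli at the sites 0 to 57 kb and 1085 kb from the first and above them at those 1397 and 1531 kb away.

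Vehicle podocytes were also set against vehicle glomeruli, where strain and preparation differ together. Of the 25 glomerular peaks 19 had a podocyte peak (76%, 56.6 to 88.5), against 66.4% of all, and of the 21 podocyte peaks 19 had a glomerular peak (90.5%, 71.1 to 97.3), against 80.7%. Podocytes had the higher fragments over coverage at 7 of the 19 shared sites, against 45.8% of all shared regions. Those 7 were the first 5 sites shared by all podocyte lists, with ratios from 1.16 to 1.58, and the last 2 sites of the window, at 20.149 and 20.208 Mb, with 1.89 and 2.0. The lowest ratio, 0.320 (0.220 to 0.455), was at 19.762 Mb, at percentile 0.724 of 18569 shared regions, and 19.472 and 19.880 Mb followed with 0.366 and 0.381. This comparison and those of day 9 and day 14 with PBS share the PBS podocyte list.

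Both sites of ADR glomeruli without a PBS glomerular peak had a day 9 podocyte peak and no other. They were at 19.568 Mb (19567838 to 19568386), with 41 fragments in ADR glomeruli and 34 at day 9, and at 19.968 Mb (19967517 to 19967902), with 43 and 24. This combination of lists made up 4.08% of the sites of the window and 1.84% of all merged regions. The 2 sites at 18.798 and 19.171 Mb had a peak in PBS glomeruli alone, which was 4.08% of the window and 11% of all regions. No site had peaks in glomeruli of both groups without any podocyte peak, a combination of 2.99% of all regions. At 7 sites (14.3%) every list but that of ADR glomeruli had a peak, against 3.44% of all regions. The 18.687 Mb site, for which the window was picked, is one of the 7, so this share describes the choice and nothing is read from it. The combination of PBS glomeruli and day 9 alone occurred at 4 sites (8.16%), against 6.21%.

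Since a site is a union of overlapping peaks, its summits lie close by construction. The 27 sites with a peak in more than 1 list had summits spread over 5 to 357 bp. At the 7 sites with a peak in all 5 lists, 14.3% against 11.2% of all regions, the spread was 24 to 116 bp. The widest spreads, 357 bp at 19.532 Mb and 229 bp at 19.952 Mb, were at weak sites with a PBS glomerular and a day 9 peak. Median distances between summits of matched peaks in the window were 12 bp for ADR and PBS glomeruli, 23.5 bp for day 9 and PBS podocytes, and 31 bp for day 14 and PBS podocytes, against 18, 28 and 24 bp over all shared regions. The 14 sites in 4 or 5 lists were 438 to 906 bp long, with a median of 719.5 bp, and the other 35 sites were 182 to 786 bp with a median of 389 bp. A union of more peaks tends to be longer by construction, so nothing is read from this difference. The sites covered 1.53% of the window.

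The ends of the window cut through no site. Just outside its start lay a weak site with 20 fragments at day 9 and 20 at day 14, 13.4 kb away, and just beyond its end a site with 84 fragments in PBS glomeruli, 30 in PBS podocytes and 38 at day 9, 2.64 kb away. Just inside stood the 18.677 Mb site and the 20.208 Mb site. The next sites outward, 227 kb below and 65.3 kb above, had 151 and 167 fragments in PBS glomeruli, and none of these 4 outer sites had an ADR glomerular peak. The weak site just below the start had no PBS glomerular peak either. Over the whole list, 46.5% of PBS glomerular peaks had an ADR match, so nothing is read from these few sites.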

How the data were processed

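The submitters' processing notes name Bowtie 0.12.7, MACS2 and the mm9 build. The control, cutoff, handling of duplicates and combining of replicates were not given in the sources used here. Each immunoprecipitation group has 1 deposited peak list, and groups were read from sample titles. No list of the 2 glomerular input libraries was analysed here. Fold enrichment, a ratio over background, and the −log10 p and −log10 q are the authors' deposited values per peak. The deposited integer score was read as about 10 times the −log10 q and not used.

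Coordinates are 1-based in mm9. Peaks matched when they overlapped by at least 1 bp. Fragments and local background were solved from fold enrichment and p by a form inferred for the caller, with the smallest background common among the strongest peaks as the genome level. On 500 simulated peaks per list it recovered 100% in each of the 5 lists. Those peaks were made by the same form, with backgrounds at the genome level or at small whole numbers. The simulation thus checked the solving alone. It could not test the form or other backgrounds. Ratios between lists carry exact binomial 95% intervals, counts being pooled over the libraries of a group. Sites named by rule were those in all lists, the 3 strongest per list, the strongest without a match and those at the window's ends; others named were chosen after their values were seen. The members and lists were chosen with earlier results of these data known, and the fragment counts were added after the data were seen. The slit diaphragm gene list needed an mm9 annotation and was not used here. Scripts ran in Python 3.11.15 with scipy 1.17.1, pandas 2.3.3 and numpy 2.4.6, and figures were drawn with matplotlib 3.10.9. The full name of the reporter strain is not reported here.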

Additional observations from a re-analysis of the deposited data

Results flagged for a closer look

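The number of peaks in the Magi2 window went opposite ways after ADR in glomeruli and in podocytes at day 9. ADR glomeruli had 0.36 times the PBS number and day 9 podocytes 2.19 times. The whole lists went the same opposite ways, at 0.572 and 1.37 times, and the window was picked on the glomerular contrast. The difference in direction was not tested, since each group has 1 list. At 2 sites with a peak in all lists the coverage-scaled fragments did the same with intervals on either side of 1. The site at 18.677 Mb had a ratio of 0.301 in ADR over PBS glomeruli and 1.5 in day 9 over PBS podocytes. The site at 18.733 Mb had 0.542 and 1.25. Scaled to the median of all shared regions, the day 9 ratios were 1.22 and 1.01, so at 18.733 Mb no opposite direction was left, and the glomerular ratios were 0.328 and 0.590. These differences were not tested either.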

How the results depend on the processing

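No paired analysis was possible because the libraries of a group come as 1 joint list, which also leaves no library to omit. Of 83 values recomputed with other filters, overlap rules, merging, ranks or windows, 69 stayed within the interval or 1.5 times of the value reported and 14 did not. Among the 69 was the share of PBS glomerular peaks with an ADR match. That share went from 28% to 43.8% when the PBS list was cut by p-value to the ADR list's length. A −log10 q of at least 10 left 16 window peaks in PBS glomeruli, 5 in ADR glomeruli and 8 at day 14, and 31 sites, of which 4 were in all 5 lists and 4 in all but ADR glomeruli. It also raised the matched share to 100% for ADR glomerular peaks in PBS glomeruli, 100% for PBS podocyte peaks at day 9 and 93.8% for PBS glomerular peaks in PBS podocytes. Cutting the longer list to the shorter one's length by p-value gave a match for 61.3% of day 9 peaks in PBS podocytes, 100% of PBS podocyte peaks at day 14, 50% of day 14 peaks in PBS podocytes, 90.9% of day 9 peaks at day 14 and 71.4% of day 14 peaks at day 9. These settings test fewer peaks by construction, except for the day 14 peaks under cutting. There all 14 peaks were kept and the list searched for a match was shortened. Shares over the whole lists were not computed under these settings, so whether the values are usual is not known. Overlap of 50%, summits within 200 bp, a window widened by 100 kb, merging across gaps and other ranks moved no value beyond those bounds.

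An alternative chosen after seeing the data scaled fragments to the median of all shared regions in place of implied coverage. It put 7 of 14 sites above 1 in day 14 over PBS podocytes, in place of 1, and 6 of 14 in day 14 over day 9, in place of 0, since day 14 fragments were lower over most shared regions. Against PBS the 6 sites whose direction turned were those at 18.738 Mb (1.10), 19.835 Mb (1.13), 19.880 Mb (1.06) and 19.886 Mb (1.32), and those at 19.765 Mb (1.63) and 20.074 Mb (1.91), whose intervals had included 1. Against day 9 they were those at 18.731 Mb (1.02), 18.734 Mb (1.24), 19.765 Mb (1.57), 19.835 Mb (1.36), 20.149 Mb (1.08) and 20.208 Mb (1.22). In day 9 over PBS podocytes it left 15 of 20 sites above 1, in place of 18, and moved 18.677 Mb to 1.22 and 18.733 Mb to 1.01. The fewest fragments at a site of the window were 12, at day 9.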
